A study of Mus musculus with 16 samples.

Results

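In all, 10 genes of retinoic acid synthesis, binding, reception and breakdown were followed in mouse embryonic stem cells through a time course of c-Raf stimulation. They are the synthesis enzymes Aldh1a1, Aldh1a2 and Aldh1a3, the receptors Rara, Rarb and Rarg, the binding proteins Crabp1 and Crabp2, the degrading enzyme Cyp26a1 and Rarres1, a gene named for its response to retinoic acid. These 10 genes stand among 20968 genes with a named probe, of which 15656 were tested, all 10 included. The genes were listed with results of these data in view. For each gene the probe was chosen by its mean signal over the arrays on which it was no outlier. The brightest probe with a value in every group was kept, and differences between groups played no part. The p-values below therefore describe these genes and do not support their choice.

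The cells were E14tg2a embryonic stem cells, an established mouse line, grown on gelatin with serum and the cytokine LIF. Per the series' design text they carried a c-Raf fusion protein whose constant activity is brought on by tamoxifen. Active c-Raf switches on Mek, which in turn switches on Erk. The DMSO group received vehicle alone. The 0h group received 250 nM PD173074, an inhibitor of FGF receptors, for 24 hours and was not induced. The groups 30m, 1h, 2h, 4h, 8h and 24h had the same pretreatment and then 250 nM 4OHT, a form of tamoxifen, for the time in their name, with the inhibitor still present. All 8 groups thus share the fusion line, and 7 of them share the inhibitor. Cells without the fusion, or given 4OHT without the inhibitor, were not analysed here. Total RNA of each group was hybridised to 2 single-colour arrays. Whether the 2 replicates of a group were cultured separately is not stated in the labels. The p-values can therefore reflect only technical spread.

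Retinoic acid is made from retinol (vitamin A) by oxidation first to retinaldehyde and then, by the ALDH1A enzymes, to the acid. It enters the nucleus with help of the CRABP proteins and binds the receptors RARA, RARB and RARG, which sit on DNA as partners of the RXR receptors and switch target genes. CYP26 enzymes oxidise it for disposal, and Cyp26a1 is itself a classical target of the receptors. Embryonic stem cells leave self-renewal and differentiate when retinoic acid is added to them.

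The receptors recognise direct repeats of a 6-base site, and the promoters of Cyp26a1 and Rarb are shown because both hold such a repeat while the former was called higher under stimulation and the latter was not called. The 250 bases before each RefSeq start (build GRCm38.p6) were searched on both strands for a pair of such sites in the same direction, separated by 1, 2 or 5 bases of any kind. Each site of a pair could be the consensus AGGTCA or 1 of 3 variants of it. The first variant was AGTTCA. The next variant allowed was GGGTCA. The last variant allowed was GGTTCA. Of 10 genes, 8 had at least 1 promoter entry, with 13 windows in all. No entry was matched for Aldh1a3 and Crabp2. The repeat spaced by 5 was found in 29 of 32851 windows (0.0883%). The repeats spaced by 1 and by 2 were found in 0.164% and 0.174%. Among the 13 windows, the spacing of 5 occurred in 2, those of Cyp26a1 and Rarb, and the other spacings in 0. The sequences follow 5′ to 3′ in the direction of the gene, with the 6-base sites in capitals. The Cyp26a1 window is chr19:37697558-37697807 on the plus strand, and its sites lie 32 to 16 bases before the start. Both are AGTTCA on the opposite strand, so the printed strand carries their reverse complement, TGAACT. The Rarb window is chr14:16575477-16575726 on the minus strand, with GGTTCA as the upstream site and, after the 5 spacer bases, AGTTCA as the downstream one, 53 to 37 bases before the start.
Cyp26a1: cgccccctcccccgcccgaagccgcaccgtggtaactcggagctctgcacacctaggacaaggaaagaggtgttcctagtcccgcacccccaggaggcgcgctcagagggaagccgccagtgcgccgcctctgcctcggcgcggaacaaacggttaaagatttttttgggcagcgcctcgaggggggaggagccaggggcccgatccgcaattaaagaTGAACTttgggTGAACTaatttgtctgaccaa
Rarb: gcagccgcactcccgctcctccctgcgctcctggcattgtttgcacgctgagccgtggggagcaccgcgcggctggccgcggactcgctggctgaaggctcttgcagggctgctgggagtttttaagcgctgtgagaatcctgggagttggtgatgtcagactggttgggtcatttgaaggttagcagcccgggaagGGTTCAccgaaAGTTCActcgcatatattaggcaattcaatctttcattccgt
A match describes these letters only and is not evidence of binding, and its absence in the other windows says nothing about the receptors.

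Levels are on a log2 scale on which 0 is the brightness of the spot at the 75th percentile of its own array. A level of 1 probe is not comparable with that of another. In 0h vs DMSO and the other comparisons, a difference is a difference of log2 levels, given with the standard error of the limma fit, and a gene was called at a Benjamini-Hochberg adjusted p under 0.05. Which array belongs to which sample is recorded in conflicting ways: for 8 of the 16 arrays the scanner file is attached to another sample than the value table column with the same values. The value table was followed, which puts replicate 1 of every group on slide 1 and replicate 2 on slide 2. Every call below rests on this, since with the arrays as attached to the scanner files 0 of the 19 calls on these genes held. In fits of only the 2 groups compared, 7 of the 19 held. The share of spots well above background ran from 54.9% to 67.2%, and each array of slide 1 lay below each array of slide 2. Correlations between replicates ran from 0.982 to 0.990 over genes. Stimulation was checked on 4 genes that respond to Erk (Egr1, Fos, Spry4 and Dusp6), of which 4 were called higher at 4h, 8h and 24h vs 0h. The stem cell markers Pou5f1, Sox2, Nanog, Zfp42, Esrrb, Dppa5a, Tdgf1, Utf1, Klf4 and Dppa4 were each above background on at least 1 array of every group.

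**Figure D1:**
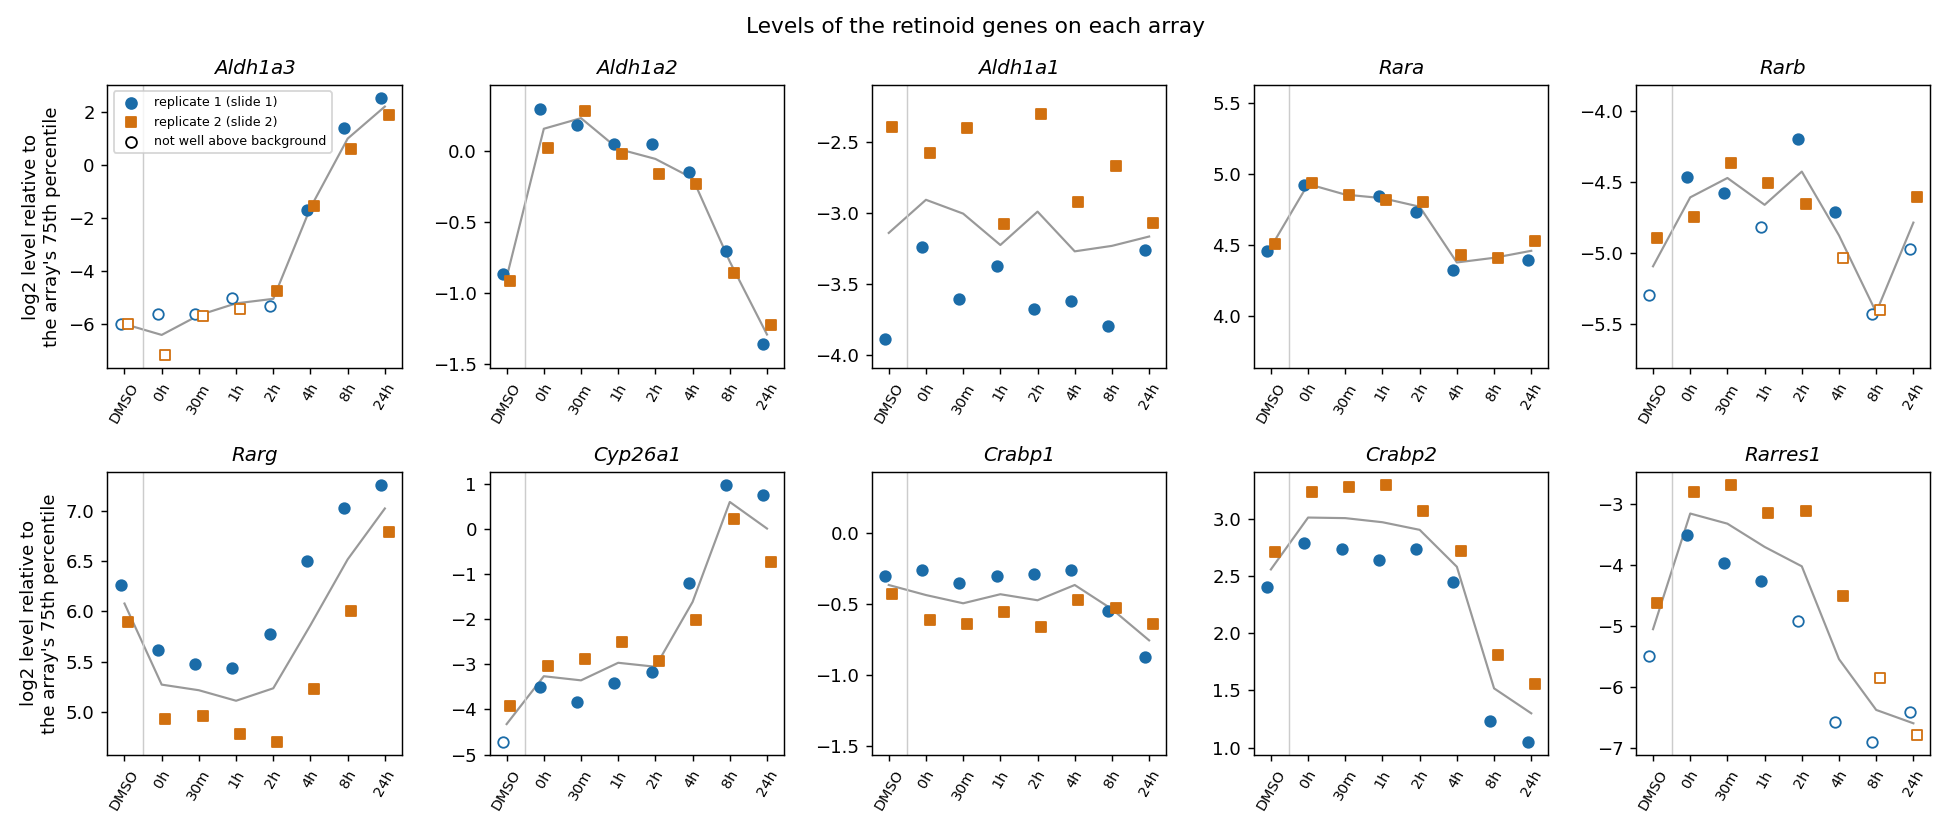
Log2 level of each of the 10 genes (vertical axis, relative to the 75th percentile of the array, with a range of its own in each panel) on each array, by group. Circles are replicate 1 on slide 1, squares replicate 2 on slide 2, open symbols spots not well above background and grey lines group means. Aldh1a3 climbs from 4h on, while Cyp26a1 climbs up to 8h and has a lower mean at 24h. Crabp2 and Rarres1 go down, and Aldh1a1 differs more between slides than between groups.

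The synthesis enzymes went separate ways. Aldh1a3 appeared during stimulation, Aldh1a2 was higher with the inhibitor than in DMSO and fell under stimulation, and no change of Aldh1a1 was called. Aldh1a3, an enzyme of retinoic acid synthesis best known from the developing eye and nose, had 0 arrays well above background in DMSO, 0h, 30m and 1h, where its levels lay between -7.19 and -5.02. At 2h replicate 2 was above background, at -4.78, and replicate 1 was not, at -5.34. Its arrays then stood at -1.69 and -1.55 at 4h, at 1.39 and 0.58 at 8h and at 2.52 and 1.86 at 24h. Each later group lay above all arrays of the groups before it. Because 0h gives only an upper limit, the increase was at least 13.1-fold at 4h, at least 79.9-fold at 8h and at least 185-fold at 24h. These limits compare the mean of the bright group with the dimmest spot that passed the background flag on each 0h array, or with the Aldh1a3 signal itself if brighter. The limma adjusted p was 0.00118 at 4h, 0.000104 at 8h and 1.11e-05 at 24h. Aldh1a3 entered the test only because both arrays of 4h, 8h and 24h were above background, the groups where it is high. Its p-values, here and against DMSO, are therefore no separate support for the rise. Against DMSO, 24h was at least 138-fold higher (adjusted p = 7.23e-05). From 8h to 24h the difference was 1.21 ± 0.45 and was not called (adjusted p = 0.135), although the arrays did not overlap. The difference of 2h vs 0h, with 1 array above background, was not called either (adjusted p = 0.639). Leaving out any 1 array kept all 4 calls, with an adjusted p of at most 0.0161.

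Aldh1a2, the main retinoic acid synthesis enzyme of the early mouse embryo, was measured well above background on all arrays. Its levels were -0.86 and -0.92 in DMSO and 0.30 and 0.02 at 0h, so that it rose by 1.05 ± 0.13 with the inhibitor (2.07-fold, adjusted p = 0.00502). From 30m to 4h the arrays lay between -0.23 and 0.29, and no change from 0h was called. They stood at -0.70 and -0.86 at 8h and at -1.36 and -1.23 at 24h, below every array from 0h to 4h. Aldh1a2 fell by 0.94 ± 0.13 at 8h (1.92-fold, adjusted p = 0.005) and by 1.45 ± 0.13 at 24h (2.74-fold, adjusted p = 0.000136). The step from 8h to 24h was -0.51 ± 0.13 (adjusted p = 0.0415), and this call was lost without any 1 of the 4 arrays (adjusted p 0.0659 to 0.238). Against DMSO the 24h group differed by -0.40 ± 0.13, which was called only with the replicate block, a term for the slide (adjusted p = 0.0282, against 0.0846). With arrays centred on their median, the call of 0h vs DMSO was lost at a change of 1.13 (adjusted p = 0.0887) and that of 8h vs 0h at a change of -0.94 (adjusted p = 0.121).

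Aldh1a1, the ALDH1A enzyme abundant in adult liver and other epithelia, was called in 0 of 9 comparisons. Its slide 2 array lay above its slide 1 array in 8 of 8 groups. Its group means spanned 0.36, less than the median gap of 0.91 between slides. In the fit without the replicate block, whose error includes this gap between slides, the standard error of 0.63 for any difference leaves changes of that size undetectable.

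**Figure D2:**
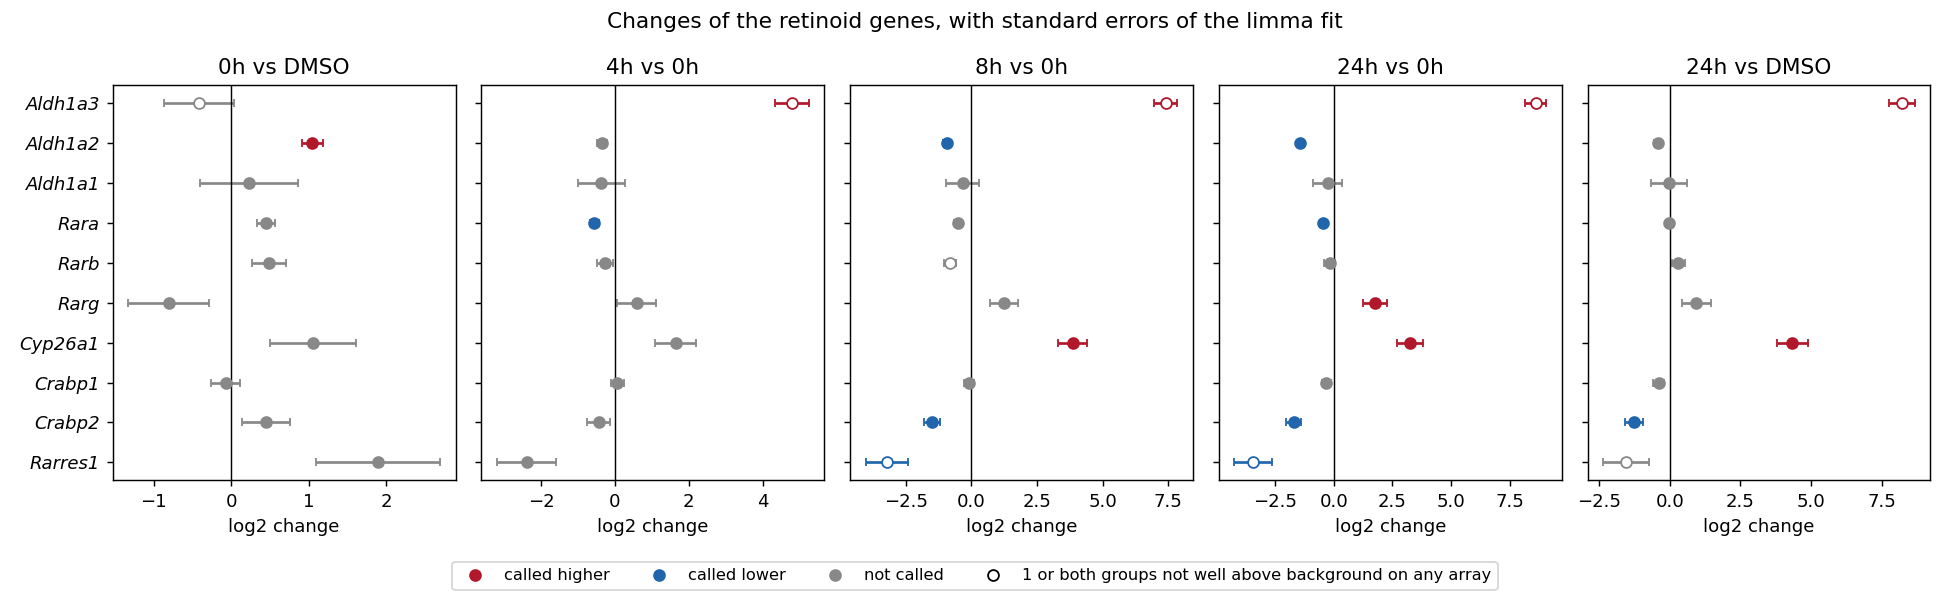
Change of each gene (horizontal axis, log2 difference of group means, with the standard error of the limma fit as bar) in 5 comparisons with 2 arrays per group. Red points were called higher, blue points lower, grey points not called, and open points have at least 1 group not well above background on any array; at 24h vs 0h 3 genes are red and 4 blue. The horizontal ranges differ between panels.

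Of the receptors, Rarg rose, Rara fell by a small amount and Rarb was near its detection limit throughout. Rarg, the receptor gene linked to Hox gene control in stem cells, read 6.26 and 5.89 on the DMSO arrays and 5.62 and 4.92 on those of 0h. Its arrays reached 6.50 and 5.23 at 4h, 7.03 and 6.01 at 8h and 7.26 and 6.78 at 24h. The 0h and 4h arrays overlapped, while those of 8h and 24h lay above both 0h arrays. Rarg rose by 1.75 ± 0.52 at 24h (3.37-fold, adjusted p = 0.0342). Replicate 1 lay above replicate 2 in 8 of 8 groups, by a median of 0.67. Within slide 1 the change at 24h was 1.64 and within slide 2 it was 1.86. With the replicate block 3 more differences of Rarg were called. These were 1.24 at 8h vs 0h (adjusted p = 0.0048, against 0.193), -0.81 at 0h vs DMSO (0.0327, against 0.485) and 0.94 at 24h vs DMSO (0.0113, against 0.296). Without the block the call at 24h was lost when any 1 of the 4 arrays was left out (changes of 1.40 to 2.10, adjusted p 0.0607 to 0.19), and with median centring (adjusted p = 0.124).

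Rara, the most widely expressed of the receptor genes, had the narrowest replicate spread. Its probe was flagged as an outlier on replicate 1 of 30m and of 8h, so those groups rest on 1 array each in the fit. In DMSO its levels were 4.46 and 4.51. They were 4.93 and 4.93 at 0h, 4.84 and 4.82 at 1h and 4.74 and 4.80 at 2h. They were 4.32 and 4.43 at 4h and 4.39 and 4.53 at 24h, with 4.41 on the single array of 8h. The arrays of 4h, 8h and 24h all lay below those of 0h to 2h and around those of DMSO. Rara fell by 0.55 ± 0.11 at 4h (1.47-fold, adjusted p = 0.0446) and by 0.47 ± 0.11 at 24h (1.39-fold, adjusted p = 0.0196). The difference of -0.52 ± 0.14 at 8h and that of 0.45 ± 0.11 at 0h vs DMSO passed the threshold only once the block was fitted (adjusted p = 0.0166 and 0.0174). The call at 4h was lost without any 1 of the 4 arrays (adjusted p 0.0723 to 0.312), and that at 24h without either 0h array or without 24h replicate 1 (adjusted p up to 0.121). A second Rara probe, above background on 16 arrays, gave -0.11 ± 0.18 at 4h and -0.27 ± 0.18 at 24h and was not called, and the mean of both probes was not called in either comparison.

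Rarb, the receptor gene that carries the repeat printed above and is a classical retinoic acid target in other cells, was dim. Its levels lay between -5.43 and -4.20 over 16 arrays, and 2 arrays of 0h, at -4.47 and -4.75, were above background. At 8h neither array was, at -5.43 and -5.41, below all arrays of the other 7 groups. The difference of 8h vs 0h was -0.81 ± 0.22, which passed the threshold only with the block (adjusted p = 0.0312, against 0.0572), with an 8h level at least 1.37-fold lower. Rarb entered the test only because both arrays of 0h, 30m and 2h were above background, the groups where it is highest. Its p-values are therefore no separate support for a fall. At 24h vs 0h the difference was -0.18 ± 0.22 (adjusted p = 0.646). A further Rarb probe was above background on 1 of 16 arrays only, at -1.83 on replicate 1 of 24h against -6.91 on replicate 2, and gave no call.

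Crabp2, which carries retinoic acid to the receptors, fell, while no change of Crabp1, which holds it in the cytoplasm and is linked to its breakdown, was called. The DMSO arrays of Crabp2 read 2.41 and 2.71. Those of 0h read 2.79 and 3.24, and those of 4h 2.45 and 2.72. They then read 1.23 and 1.81 at 8h and 1.05 and 1.55 at 24h. These 4 arrays lay below the other 12. Crabp2 fell, by -1.50 ± 0.31 at 8h (2.82-fold, adjusted p = 0.0224) and by -1.71 ± 0.31 at 24h (3.28-fold, adjusted p = 0.00342). It was also lower at 24h than in DMSO, by -1.26 ± 0.31 (2.39-fold, adjusted p = 0.0287). Slide 2 lay above slide 1 in 8 of 8 groups, by 0.27 to 0.66, and with the block the differences of 0.45 at 0h vs DMSO and of -0.43 at 4h vs 0h were called too (adjusted p = 0.0269 and 0.0322). Without the block the call at 8h was lost without either 0h array or 8h replicate 1 (adjusted p up to 0.218), and that against DMSO without either DMSO array or 24h replicate 1 (adjusted p up to 0.238). Crabp1 lay between -0.87 and -0.26 over 16 arrays and was called in 0 of 9 comparisons. Its lowest group mean was that of 24h, whose arrays read -0.87 and -0.64 and overlapped those of other groups, with a difference of -0.32 ± 0.19 from 0h (adjusted p = 0.258).

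Cyp26a1, which oxidises retinoic acid for disposal, rose from 8h on. Its DMSO arrays read -4.72 (not above background) and -3.92. Those of 0h read -3.49 and -3.04, and the arrays lay between -3.84 and -2.51 from 30m to 2h. They reached -1.21 and -2.03 at 4h, 0.98 and 0.21 at 8h and 0.74 and -0.73 at 24h. The 4h arrays lay above all earlier ones, and those of 8h and 24h lay above 4h but overlapped each other. Cyp26a1 rose by 3.86 ± 0.56 at 8h (14.5-fold, adjusted p = 0.00514) and by 3.27 ± 0.56 at 24h (9.65-fold, adjusted p = 0.00237). Against DMSO, where 1 of 2 arrays measured it, 24h was higher by 4.33 ± 0.56 (20.1-fold, adjusted p = 0.00156). The difference of 1.65 ± 0.56 at 4h was not called (adjusted p = 0.143, or 0.0819 with the block). Within slide 1 the change at 24h was 4.24 and within slide 2 it was 2.30. The call at 8h was lost without 8h replicate 1 (change 3.47, adjusted p = 0.0566).

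Rarres1, a membrane protein gene named for its response to a retinoid, went the other way. Its DMSO arrays read -5.48 (not above background) and -4.61, and its 0h arrays -3.51 and -2.80. Its arrays read -4.92 (not above background) and -3.12 at 2h, -6.57 (not above background) and -4.50 at 4h, -6.90 and -5.84 at 8h and -6.40 and -6.78 at 24h. None of the 4 arrays of 8h and 24h was above background, and all 4 lay below both 0h arrays. Rarres1 was at least 3.76-fold lower at 8h (fitted change -3.22 ± 0.80, adjusted p = 0.0422) and at least 2.94-fold lower at 24h (fitted change -3.43 ± 0.80, adjusted p = 0.0115). With the block the differences of 1.89 at 0h vs DMSO, -2.38 at 4h vs 0h and -1.54 at 24h vs DMSO were called as well (adjusted p = 0.0253, 0.0115 and 0.0367, against 0.253, 0.143 and 0.268). The call at 8h was lost without either 0h array or 8h replicate 1 (adjusted p up to 0.337) and, at a fitted change of -0.76, with normexp background correction (adjusted p = 0.0634). The call at 24h was lost without 0h replicate 2 or either 24h array (adjusted p up to 0.0766). Rarres1 entered the test only because both arrays of 0h, 30m and 1h were above background, the groups where it is high. Its p-values, with and without the block, are therefore no separate support for the fall.

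**Figure D3:**
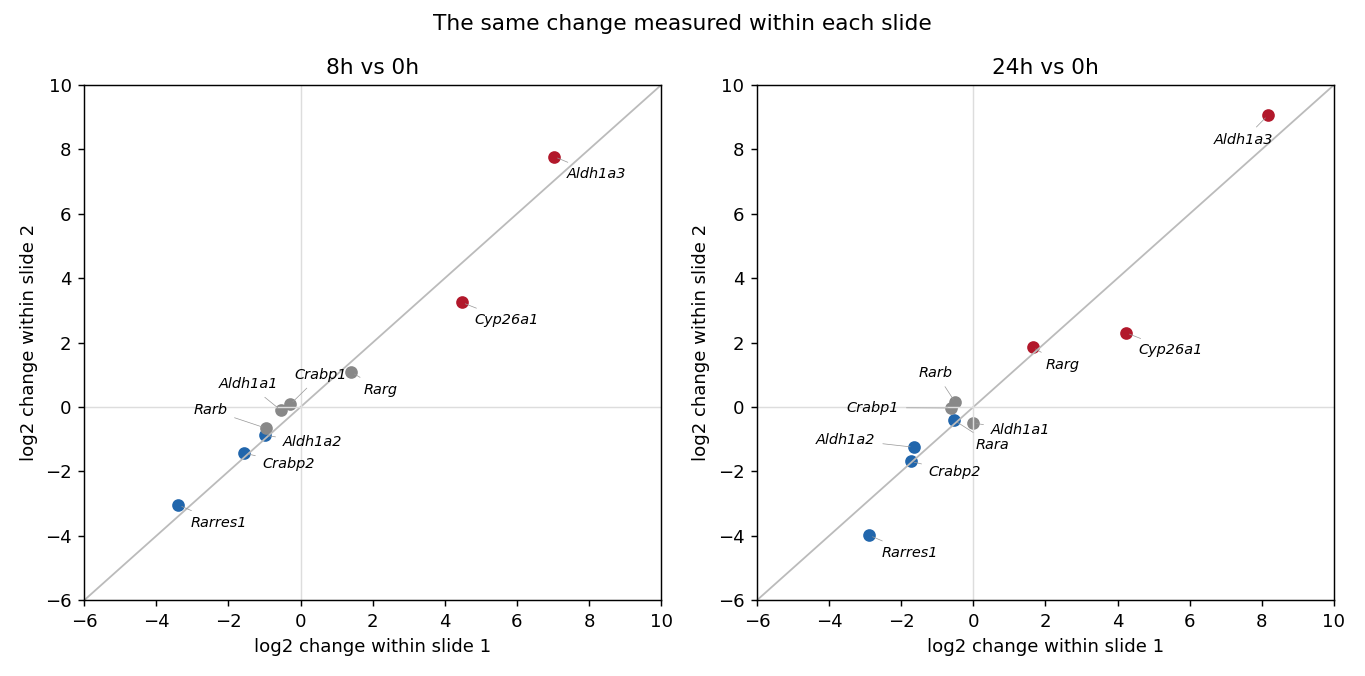
Log2 change of each gene within slide 1 (horizontal axis, replicate 1 arrays) and within slide 2 (vertical axis, replicate 2 arrays) for 8h vs 0h and 24h vs 0h; the grey diagonal marks equal change. Red, called higher; blue, called lower; grey, not called. All called genes have the same sign on both slides, and Cyp26a1 at 24h lies farthest below the diagonal, at 4.24 and 2.30. Rara has no slide 1 value at 8h.

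Counted over the 10 genes, 24 hours of inhibitor gave 1 call higher (Aldh1a2) and 0 lower, beside 2.22% of all tested genes higher and 1.28% lower. At 30m and 1h of stimulation 0 of the 10 genes were called, beside 0% of all genes, with 0 and 1 of the 10 at an unadjusted p under 0.05. At 2h it was also 0, beside 0.115%, with 1 at an unadjusted p under 0.05 (limma throughout). At 4h Aldh1a3 was higher and Rara lower, beside 1.44% of genes higher and 1.74% lower. At 8h Aldh1a3 and Cyp26a1 were higher and Aldh1a2, Crabp2 and Rarres1 lower, beside 3.13% and 3.62%. At 24h Rarg joined the higher and Rara the lower genes, which made 3 higher and 4 lower, beside 10.7% and 13.0%. At 24h vs DMSO 2 were higher and 1 lower, beside 6.57% and 4.79%, and at 24h vs 8h 0 were higher and 1 lower, beside 5.22% and 3.58%. All comparisons with 0h share the same 2 arrays of 0h, so their calls are not separate evidence. The genes were listed with these results known, and nothing is read from their count beside the share of all genes.

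With the replicate block more genes were called, over all genes as among the 10. The 10 genes had 4 calls higher and 1 lower at 0h vs DMSO (8.33% and 6.62% of all genes), 1 and 3 at 4h (7.58% and 8.44%) and 3 and 5 at 8h (8.33% and 12.7%). They had 3 and 4 at 24h (18.2% and 21.3%), 3 and 3 at 24h vs DMSO (12.5% and 13.5%) and 0 and 1 at 24h vs 8h (12.7% and 10.2%). The balance of all called genes moved with the scaling: with arrays centred on their median, 87.3% of called genes were higher at 0h vs DMSO (63.5% otherwise), 67.0% at 4h vs 0h (45.2%) and 47.1% at 24h vs 8h (59.3%). The median change of the 10 genes was 0.45 at 0h vs DMSO, -0.31 at 4h, -0.42 at 8h, -0.29 at 24h vs 0h and -0.03 at 24h vs DMSO. Over all tested genes it was -0.01, 0.00, -0.05, -0.01 and -0.04.

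Comparisons with DMSO set stimulated cells, inhibitor included, against cells without inhibitor. Of the 7 genes called at 24h vs 0h, 3 were also called against DMSO, namely Aldh1a3, Cyp26a1 and Crabp2. Rara at 24h was -0.03 ± 0.11 from its DMSO level (adjusted p = 0.93). In bulk RNA, fewer cells of a type and less RNA per cell cannot be told apart.

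Over the 8 group means, Pearson's r between Aldh1a3 and Cyp26a1 was 0.96. It was 0.92 between Crabp2 and Rarres1 and -0.96 between Rarg and Crabp2, while Aldh1a2 and Rarg stood at -0.94. These values describe 8 points that share arrays, scaling and the time course, and carry no test. Among 4763 tested genes whose group means spanned at least 1 on the log2 scale, the 3 with the highest r to Aldh1a3 were S1pr3 (0.995), Npcd and Gpnmb (0.993 each). For Cyp26a1 they were Itga7 (0.997), Anxa2 (0.995) and Fetub (0.991). Itga7 stood at means of -1.14 at 0h, 1.07 at 8h and 0.61 at 24h. The genes most like Aldh1a2 were Gm8909 (0.997), Brwd1 (0.994) and Ndrg4 (0.993), and those most like Rarg were Atp11b (0.993), Arhgef26 (0.992) and Mcc (0.991). Nearest to Crabp2 were Sfrp2 (0.997), Aph1b and Herc3 (0.995 each), nearest to Rarres1 Tac2 (0.995), Tmem38a (0.994) and Crot (0.990), and nearest to Rara Smad3 (0.985), Tacc2 and Farp2 (0.982 each). Of the Rara means, those of 30m and 8h rest on 1 array each.

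**Figure D4:**
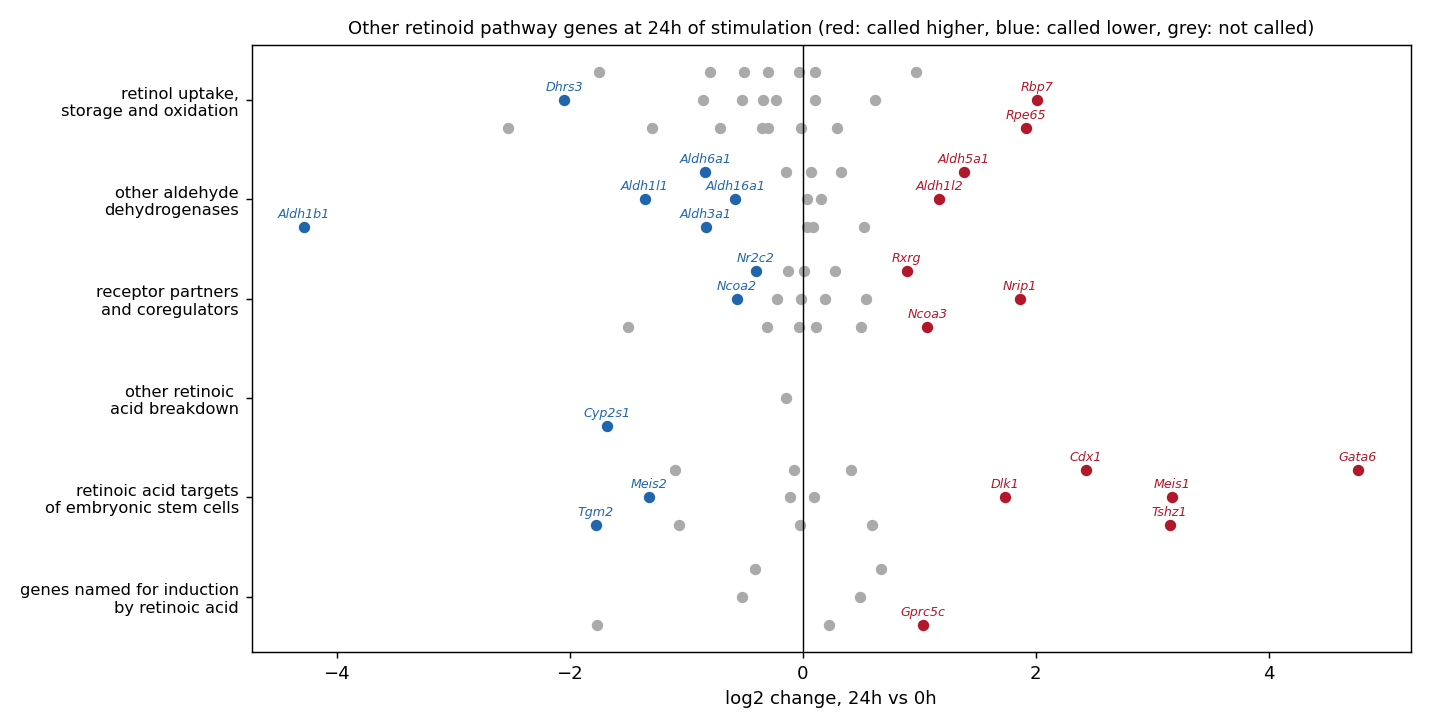
Log2 change at 24h vs 0h (horizontal axis) of the tested genes in 6 other lists of the retinoid pathway, except 2 that are not reported here (vertical axis, points spread within a row for legibility). Red points were called higher, blue points lower and grey points not called; Gata6 lies farthest right, at 4.76, and Aldh1b1 farthest left, at -4.28.

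Among genes of retinol uptake, storage and oxidation, 24 of 30 passed the filter on dim probes. At 24h vs 0h 3 were higher and 1 lower (5 and 7 under the block), beside 10.7% and 13.0% of all tested genes, and the median change was -0.30 beside -0.01 over all genes. Dhrs3, the reductase that turns retinaldehyde back into retinol and is known as a target of retinoic acid, had means of 0.29 at 0h, -1.29 at 4h, -2.02 at 8h and -1.75 at 24h. It rose by 1.29 ± 0.27 with the inhibitor (adjusted p = 0.033) and fell by 1.58 ± 0.27 at 4h, by 2.32 ± 0.27 at 8h and by 2.05 ± 0.27 at 24h (adjusted p = 0.0195, 0.00199 and 0.000699). Rbp7, a retinol binding protein, rose by 2.01 ± 0.51 at 24h. Rpe65, the retinoid isomerase of the eye, was at least 2.73-fold higher at 4h, 3.77-fold at 8h and 2.52-fold at 24h. Akr1b10, an aldo-keto reductase, fell by 0.65 ± 0.14 at 8h. Against DMSO, the 24h group was lower in the dehydrogenase genes Dhrs4, by -1.05 ± 0.29, and Rdh14, by -0.49 ± 0.14. Rdh10, which makes retinaldehyde from retinol, differed by -0.85 ± 0.29 at 24h, past the threshold only with the block (adjusted p = 0.00236, against 0.0542). Among the genes of this list not tested were Stra6, the retinol uptake receptor, and Lrat, which stores retinol as esters.

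Of the other aldehyde dehydrogenases, 2 of 15 tested rose and 5 fell at 24h, beside 10.7% and 13.0% of all tested genes. At 4h and 8h 0 were called, or 0 and 3 once the block was fitted. Aldh1b1, a mitochondrial enzyme, fell by 4.28 ± 1.04 (adjusted p = 0.0137, with -5.72 and -2.83 within the slides and 1 of 2 arrays of 24h above background). Aldh5a1, which acts on succinic semialdehyde, rose by 1.38 ± 0.29 (adjusted p = 0.00732), and Aldh1l2, a folate enzyme of mitochondria, by 1.17 ± 0.28. Aldh1l1, its cytosolic relative, fell by 1.35 ± 0.21, Aldh6a1 by 0.84 ± 0.15, Aldh3a1 by 0.83 ± 0.24 and Aldh16a1 by 0.58 ± 0.16. With the inhibitor Aldh3a1 rose by 1.47 ± 0.24 (adjusted p = 0.013). The CYP26 relatives Cyp26b1 and Cyp26c1 were in no group above background on both arrays and were not tested, and Cyp2s1, a P450 gene of another family listed for retinoic acid breakdown, fell by 1.68 ± 0.42 at 24h.

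Of 17 receptor partners and coregulators, 3 rose and 2 fell at 24h, which is near the 10.7% and 13.0% of all tested genes, and with the block the counts were 4 and 4. At 4h and 8h 0 were called, or 1 and 3 once the block was fitted. Nrip1, a corepressor that binds active nuclear receptors, rose by 1.86 ± 0.23 (adjusted p = 0.000479). Rxrg, a partner of the retinoic acid receptors, rose by 0.89 ± 0.19 and the coactivator gene Ncoa3 by 1.07 ± 0.23, while Ncoa2, another coactivator, fell by 0.57 ± 0.16 and the orphan receptor gene Nr2c2 by 0.40 ± 0.13. With the inhibitor Ncoa2 rose by 0.71 ± 0.16. Rxra was at 0.19 ± 0.24 (adjusted p = 0.657) and Fabp5, which carries retinoic acid to another nuclear receptor, at 0.27 ± 0.22 (adjusted p = 0.428).

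Of 23 genes listed as retinoic acid targets of embryonic stem cells, 16 were tested. In these, 6 rose and 2 fell at 24h vs 0h, beside 10.7% and 13.0% of all tested genes, with a median of 0.26 beside -0.01. At 8h 2 rose and 1 fell (3 and 3 with the block), beside 3.13% and 3.62%, and at 4h 1 rose (2 higher and 1 lower with the block), beside 1.44%. Cdx1, a homeobox gene of the posterior embryo, rose by 1.01 ± 0.15 at 8h and by 2.43 ± 0.15 at 24h. Gata6, a regulator of primitive endoderm, rose by 4.76 ± 0.53 at 24h (adjusted p = 0.000304) and stood at 0.36 ± 0.53 at 8h (adjusted p = 0.786). Meis1 rose by 3.17 ± 0.64 at 24h, whereas Meis2 rose by 1.04 ± 0.21 at 4h and fell by 1.32 ± 0.21 at 24h. Tshz1, a zinc finger gene, rose by 3.40 ± 0.55 at 8h, and Tgm2, transglutaminase 2, fell by 1.78 ± 0.43 at 24h. Dlk1, a Notch ligand relative, fell by 1.03 ± 0.17 with the inhibitor and rose by 1.73 ± 0.17 at 24h. Foxa1, an endoderm factor, was at least 3.03-fold lower at 8h. Against DMSO, 7 of the 16 were higher at 24h and 1 lower, beside 6.57% and 4.79% of all tested genes, among them Hoxa3, by 0.98 ± 0.28. Stra8, the germ cell gene first found as stimulated by retinoic acid, was not called, with -1.26 ± 0.43 at 8h (adjusted p = 0.112, or 0.00616 with the block). Hoxa2, Hoxa5 and Hoxb1 to Hoxb5 did not pass the filter. Among 7 tested genes named for induction by retinoic acid, 1 rose, Gprc5c, by 1.39 ± 0.30 at 8h and 1.03 ± 0.30 at 24h. With the block 3 were called higher at 8h and 2 at 24h, among them Gprc5a (adjusted p = 0.0155 and 0.0223).

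Among markers of other cell types, some of mesoderm and of trophoblast were called higher from 4h on. Of 7 tested mesoderm markers 2 were higher at 4h vs 0h (Hand1 and Foxf1) and 3 at 8h (Mesp1, Eomes and Hand1). At 24h 2 were higher (Mesp1 and Hand1). The median change of the list was 0.90, 1.42 and 0.27, beside 0.00, -0.05 and -0.01 over all genes. Of all tested genes 1.44% were higher and 1.74% lower at 4h, 3.13% and 3.62% at 8h, 10.7% and 13.0% at 24h. With the block these shares were 7.58% and 8.44%, 8.33% and 12.7%, and 18.2% and 21.3%. Mesoderm markers called higher with the block were 3, 4 and 2. Hand1, a factor of lateral mesoderm and trophoblast, rose 3.64-fold at 4h, 7.62-fold at 8h and 24.9-fold at 24h, with 1 of 2 arrays of 0h above background. Foxf1 was at least 11.1-fold higher at 4h, and Mesp1 at least 2.12-fold higher at 8h and 5.38-fold at 24h. T was above background on both arrays of 8h only and was not called there (adjusted p = 0.0791), and Mixl1 was not above background in any group. Of 6 tested trophoblast markers 1 was higher at 4h (Cdx2), 2 at 8h (Cdx2 and Krt18) and 4 at 24h, with Krt7 and Krt8. Tfap2c and Gcm1 were not called, with -1.34 ± 0.58 and -0.22 ± 0.32 at 24h vs 0h. With the block Tfap2c was called lower at 24h (adjusted p = 0.00436). Cdx2, which also serves the posterior embryo, was at least 33.5-fold higher at 4h, 30.6-fold at 8h and 13.8-fold at 24h, while Elf5 was not above background in any group. Foxf1, Mesp1 and Cdx2 passed the filter on dim probes only through groups where they are high, so their calls are no separate support.

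Of 8 tested primitive endoderm markers 0 were called at 4h and at 8h, and at 24h Pdgfra was at least 2.88-fold higher and Lama1 3.15-fold lower. With the block 1 was lower at 4h and 2 at 8h, and at 24h 1 was higher and 2 lower. Pdgfra was above background at 24h alone and passed the filter on dim probes only through that group, where it is high. Its call is therefore no separate support. Of 6 neural markers 0 were called at 4h, 1 was lower at 8h (Map2) and 3 at 24h (Pax6, Tubb3 and Map2). Of 5 fibroblast markers Thy1 was higher at 8h and 24h and Vim lower at 24h, and Lum and Postn were not above background in any group. Of 10 stem cell markers 0 were called at 4h and at 8h, and at 24h 1 was higher (Utf1) and 4 lower (Nanog, Zfp42, Esrrb and Klf4). The shares of all tested genes, higher and lower, were 1.44% and 1.74% at 4h, 3.13% and 3.62% at 8h and 10.7% and 13.0% at 24h. With the block they were 7.58% and 8.44%, 8.33% and 12.7%, and 18.2% and 21.3%. Neural markers then had 1 higher and 2 lower at 4h, 0 and 2 at 8h and 0 and 4 at 24h. Fibroblast markers had 0 and 0, 1 and 0, and 1 and 2. Stem cell markers had 2 and 0, 2 and 0, and 2 and 5. The levels of each list, summed in multiples of the 75th percentile of the array, mostly follow its brightest probes. They ran from 48.0 to 63.4 at 0h and from 83.5 to 139 at 24h for trophoblast, from 9.35 to 10.4 and from 10.3 to 11.2 for mesoderm, and from 31.4 to 32.1 and from 9.23 to 12.5 for primitive endoderm. For mesoderm the sum was largely that of Kdr, with log2 means of 3.23 at 0h and 3.23 at 24h, and for primitive endoderm that of Lama1, with 4.95 and 3.29, so neither describes its list. The sums were 10.8 to 14.7 and 4.11 to 4.74 for neural, 18.4 to 23.0 and 16.8 to 19.5 for fibroblast and 750 to 803 and 658 to 690 for stem cell markers. At 0h the neural sum was largely that of Tubb3, with log2 means of 3.22 at 0h and 0.41 at 24h. Krt18, with 3.54 and 6.28, made most of the trophoblast sum at 24h. The fibroblast sum was largely Vim at 0h (4.13, and 1.93 at 24h) and Thy1 at 24h (3.77, and 1.43 at 0h). The neural, trophoblast and fibroblast sums thus do not describe their lists either. The part of these changes in the results above was not tested.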

How the data were processed

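The scanner files hold, per the file headers, the green-channel intensity of each spot from Agilent Feature Extraction 11.0.1.1, processed by that software. The deposited value table holds the same intensity, with 1 column per sample. Cy5 is the dye in the labels, but the scanned channel is green. Every file was paired with the column that equalled it at 100% of spots (within 0.6%, other columns at most 4.99%), and took its sample from there.

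Control and outlier spots were left out, log2 intensities were taken relative to the 75th percentile of each array, and spots of a probe were averaged. Of 55681 probes, 27650 matched 1 gene of the RefSeq table for GRCm38.p6 by accession and 28031 matched none. A gene entered the test if, in 1 group or more, both arrays had its brightest probe above background by the scanner software's flag. Differences were fitted with limma 3.58.1 in R 4.3.3 (8 group means, 16 arrays, 8 residual degrees of freedom), with Benjamini-Hochberg adjustment over 15656 genes in each of 9 comparisons. The fit was tested on simulated data. Replicate 1 minus replicate 2 differences correlated at 0.33 to 0.66 over all 28 pairs of groups, so replicate numbers, which are also the slides, pair the samples.

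The genes and lists were chosen with earlier results of these data known. Named genes are the 10 genes, the called genes of the other pathway lists (at most 6 per list and comparison), a few genes with a stated role, and for each called gene the 3 others with the highest r. Of the genes this rule names, 2 are not reported here, though the counts of their lists include them. Alternatives were the replicate block, normexp (offset 50, on median signals, since the mean signals that were planned are not used here), median centring, quantile normalization, no filter, the mean of all probes, the attached samples, the value table, only the 2 groups compared, a 2-fold minimum and leaving out each array. The number of arrays limits the precision.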

Additional observations from a re-analysis of the deposited data

How the results depend on the processing

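Of 19 called changes of the 10 genes, 19 held with the replicate block, 19 with quantile normalization and 19 from the value table. Counts held by other settings were 17 with normexp, 17 with the mean of all probes, 16 without the filter on dim probes, 15 with a 2-fold minimum, 13 with median centring and 7 with only the 2 groups compared. Of 76 fits that left out 1 array, 48 kept the call. With the replicate block 5 genes were called at 0h vs DMSO, 4 at 4h vs 0h, 8 at 8h vs 0h and 6 at 24h vs DMSO. Median centring gave 0 at 0h vs DMSO, 1 at 4h vs 0h and 0 at 24h vs 8h. It moved the median change of all genes to -0.10 at 2h and at 24h vs 0h. No filter, and likewise a 2-fold minimum, gave 1 at 4h and 0 at 24h vs 8h, and the mean of all probes 1 at 4h. Only the 2 groups gave 0 at 0h vs DMSO, 0 at 4h, 0 at 8h, 1 at 24h vs DMSO and 0 at 24h vs 8h. Leaving out 1 array gave 1 to 1 at 0h vs DMSO, 1 to 1 at 4h, 2 to 5 at 8h, 4 to 5 at 24h vs 0h, 2 to 3 at 24h vs DMSO and 0 to 0 at 24h vs 8h. The cause was not tested, except that fewer arrays enter the last 2 kinds of fit.

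With samples as attached to the scanner files, counts were 0 at 0h vs DMSO, 1 at 2h, 0 at 4h, 1 at 8h, 0 at 24h vs 0h, 0 at 24h vs DMSO and 0 at 24h vs 8h. Changes of the 10 genes called with or without the block, and called changes of the other named genes, turned sign under this setting alone. Median centring or quantile normalization turned 6 small changes of Aldh1a1, Rara, Crabp1 and Crabp2 that neither fit called. Among the 10 genes, Rarg was 0.041 at 0h vs DMSO, -0.58 at 8h, -0.27 at 24h and -0.23 at 24h vs DMSO. Rara was 0.057 at 4h, 0.0077 at 8h and 0.047 at 24h. Rarres1 was 1.39 at 4h, 0.78 at 8h, 0.082 at 24h and 0.24 at 24h vs DMSO. At 4h Aldh1a3 was -0.71 and Crabp2 0.36. Of the other genes, Egr1 was -0.86 at 2h, -0.90 at 4h and -0.90 at 8h, and Fos -0.42, -0.70 and -0.93. Spry4 was -0.44 at 4h, -0.94 at 8h and -0.62 at 24h vs DMSO. Dusp6 was -1.003 at 4h, -1.07 at 8h, -0.077 at 24h and -0.39 at 24h vs DMSO. Dhrs3 was 0.35 at 4h and 0.011 at 8h, Meis2 -0.19 and Hand1 -0.072 at 4h, Foxa1 0.27 and Eomes -0.19 at 8h. At 24h Aldh1b1 was 0.0090, Cyp2s1 0.58, Gprc5c -0.071 and Utf1 -0.18.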
